A study of Oryza sativa with 6 samples.

Results

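Fd-GOGAT and GDH2 encode enzymes that make or break down glutamate, and both are described here in detached rice leaves kept in darkness with or without a cytokinin. A probe set, a group of array probes summarised into 1 signal, was taken as theirs when the array annotation listed it with that gene alone. The rule found 2 genes measured by 6 probe sets, 3 for each gene, of 17905 genes measured by 22436 such probe sets in all. The rule itself uses no array value, but the genes were chosen with earlier results of these arrays known. A glutamate synthase and a glutamate dehydrogenase had, however, been listed by the study among genes chosen on these same arrays, so a higher level with BA is not independent evidence of its direction.

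Leaves of the rice cultivar Nagina 22 (N22) were the third leaf of plants 30 days old. For each replicate 5 g of leaf was kept in 35 ml of solution for 72 h of dark-induced senescence (DIS), with or without the synthetic cytokinin 6-benzyl adenine (BA), given at 2 mg/ml. The solution of both groups held 0.1 N NaOH and 0.02% Tween 20, and each group had 3 arrays that the study calls biological replicates. One label field gives 2 h in place of 72 h, and the arrays are treated here as 72 h. Leaves sampled before darkness were not analysed here, so whether BA raised a transcript or untreated leaves lost it cannot be told apart.

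In leaves, ammonium is built into amino acids by the GS-GOGAT cycle. Glutamine synthetase joins ammonium to glutamate to make glutamine, and glutamate synthase (GOGAT) passes the amide nitrogen of glutamine to 2-oxoglutarate, which yields glutamate. The ferredoxin-dependent enzyme, Fd-GOGAT, works in chloroplasts, takes its electrons from reduced ferredoxin and is known for recovering the ammonium that photorespiration releases. Glutamate dehydrogenase (GDH) is a mitochondrial enzyme of a reversible reaction, best known for releasing ammonium from glutamate to supply carbon skeletons when sugar is short. Senescing leaves break down chloroplast protein and export much of its nitrogen as glutamine and asparagine.

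Both genes gave higher signals in BA-treated than in untreated leaves after 72 h of DIS. The brightest probe set of Fd-GOGAT averaged 272 ± 3.06 with BA and 134 ± 9.55 without it (SD, n = 3 each), a 2.02-fold difference. The brightest probe set of GDH2 averaged 2020 ± 130 with BA and 938 ± 361 without it (SD, n = 3 each), a 2.26-fold difference. The Fd-GOGAT change passed the limma test after adjustment over all probe sets. The GDH2 change did not, and its untreated arrays were spread more widely. Signals came from whole leaf tissue, in which fewer cells of a type and less RNA per cell cannot be told apart.

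Of the 6 probe sets of both genes, 2 had an adjusted p under 0.05 and were higher with BA, both of Fd-GOGAT. Over all 57258 rice probe sets, 53 were called higher at that threshold, which is 0.0926%, and 38 were called lower, which is 0.0664%. At the thresholds the study used, over 1.5-fold with an unadjusted p under 0.05, 5 of the 6 probe sets were higher, against 1.73% of all probe sets. The study had listed a glutamate synthase and a glutamate dehydrogenase at these thresholds on these same arrays. That count therefore follows in part from the choice of genes and is no evidence of an excess. All 3 BA arrays lay above all 3 untreated arrays for the same number, 5 of 6, against 6.71% of all probe sets. All 6 had a mean level above the median probe set. Probe sets of 1 gene measure the same transcripts, and those named alike up to the last suffix come from the same target sequence, so these counts do not stand for independent measurements.

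**Figure D1:**
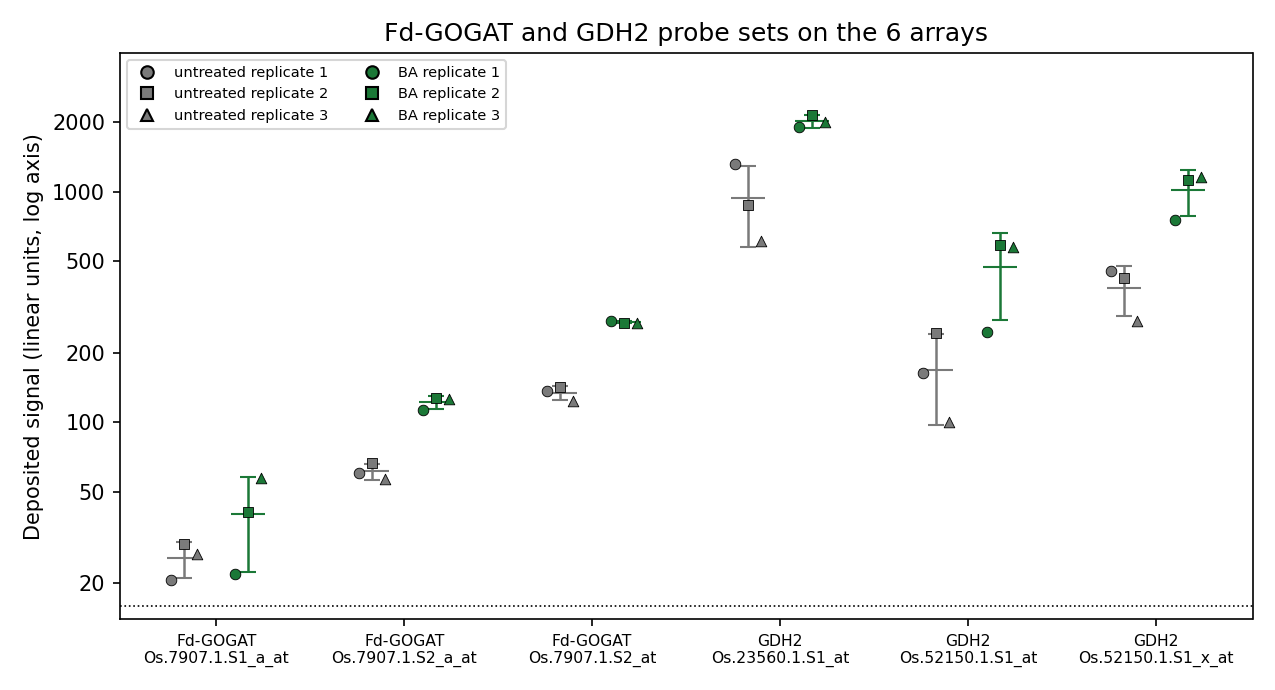
Deposited signal (linear units, on a log axis) of the 6 Fd-GOGAT and GDH2 probe sets, with points for the arrays, horizontal marks for group means and bars for the SD of 3 arrays. The dotted line is the lowest signal on every array, 16. Untreated and BA arrays are apart in 5 probe sets, and overlap in the dim Fd-GOGAT probe set Os.7907.1.S1_a_at.

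The probe sets of Fd-GOGAT did not all give the same picture. On the brightest, Os.7907.1.S2_at, untreated replicates 1, 2 and 3 had signals of 137, 143 and 124, and BA replicates 1, 2 and 3 had 275, 270 and 270.4. The BA arrays were nearly equal to each other, and even the lowest of them was 1.89 times the highest untreated array. On the log2 scale the change was 1.01 (SE 0.0813, 95% interval 0.814 to 1.21), with a limma adjusted p of 0.025. Its unadjusted p ranked 40 among 57258 probe sets. An exact two-sided permutation test over the arrays gave p = 0.1, the smallest that 3 against 3 arrays allow.

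The second Fd-GOGAT probe set, Os.7907.1.S2_a_at, holds probes shared by several transcripts of the gene. Its signals were 60.2, 66.6 and 56.8 in untreated replicates 1 to 3 and 113, 127 and 126 in BA replicates 1 to 3. The groups were again apart, and the change was nearly that of the brightest probe set, 0.98 on the log2 scale (SE 0.095, 95% interval 0.752 to 1.22, limma adjusted p = 0.041). Untreated replicate 2 was the highest and replicate 3 the lowest untreated array on both of these probe sets.

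The third, Os.7907.1.S1_a_at, was close to the constant of 16 that forms the lower end of the deposited values. It had signals of 20.8, 29.7 and 26.8 in untreated leaves and 22.1, 40.9 and 57.4 in BA-treated leaves, for replicates 1 to 3. BA replicate 1 fell within the untreated arrays, so the groups overlapped. The change was 0.53 on the log2 scale, with a 95% interval of −0.32 to 1.39 that holds both 0 and the change of the brightest probe set (limma adjusted p = 0.82). It was 0.23 without BA replicate 3 and 0.90 without BA replicate 1 (adjusted p = 0.28), and without the latter all 6 probe sets of both genes passed the study's thresholds. That count was 5 with all arrays and 4 without untreated replicate 3, BA replicate 2 or BA replicate 3. Over all probe sets, 991 were higher at these thresholds with all arrays and 1398 without BA replicate 1. There were 1078, 793 and 829 without untreated replicate 3, BA replicate 2 and BA replicate 3, in that order. BA replicates 2 and 3 differed by 0.48 on the log2 scale on Os.7907.1.S1_a_at, a gap exceeded by 0.615% of all probe sets. They were nearly equal on Os.7907.1.S2_at and Os.7907.1.S2_a_at. The gaps there were 0.0035 and 0.012, exceeded by 97.7% and 92.1% of all probe sets. With the 3 probe sets averaged on the log2 scale, Fd-GOGAT changed by 0.84 and the limma adjusted p was 0.14.

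The call on Fd-GOGAT depended on the arrays and on how the spread was estimated, while the size of the change moved little. Leaving out each array in turn gave changes of 0.96 to 1.06 for the brightest probe set, with limma adjusted p from 0.041 to 0.22. The call was lost without untreated replicate 1 (adjusted p = 0.074) and without BA replicate 1, 2 or 3 (0.054, 0.22 and 0.22). For Os.7907.1.S2_a_at it was lost whichever of the 6 arrays was left out (adjusted p from 0.052 to 0.33). The closest pair of all arrays was BA replicates 2 and 3, whose log2 differences over probe sets had an SD of 0.16, whereas other pairs had 0.416 to 0.615. Averaged as 1 sample, they left a change of 1.02 and an adjusted p of 0.23.

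**Figure D2:**
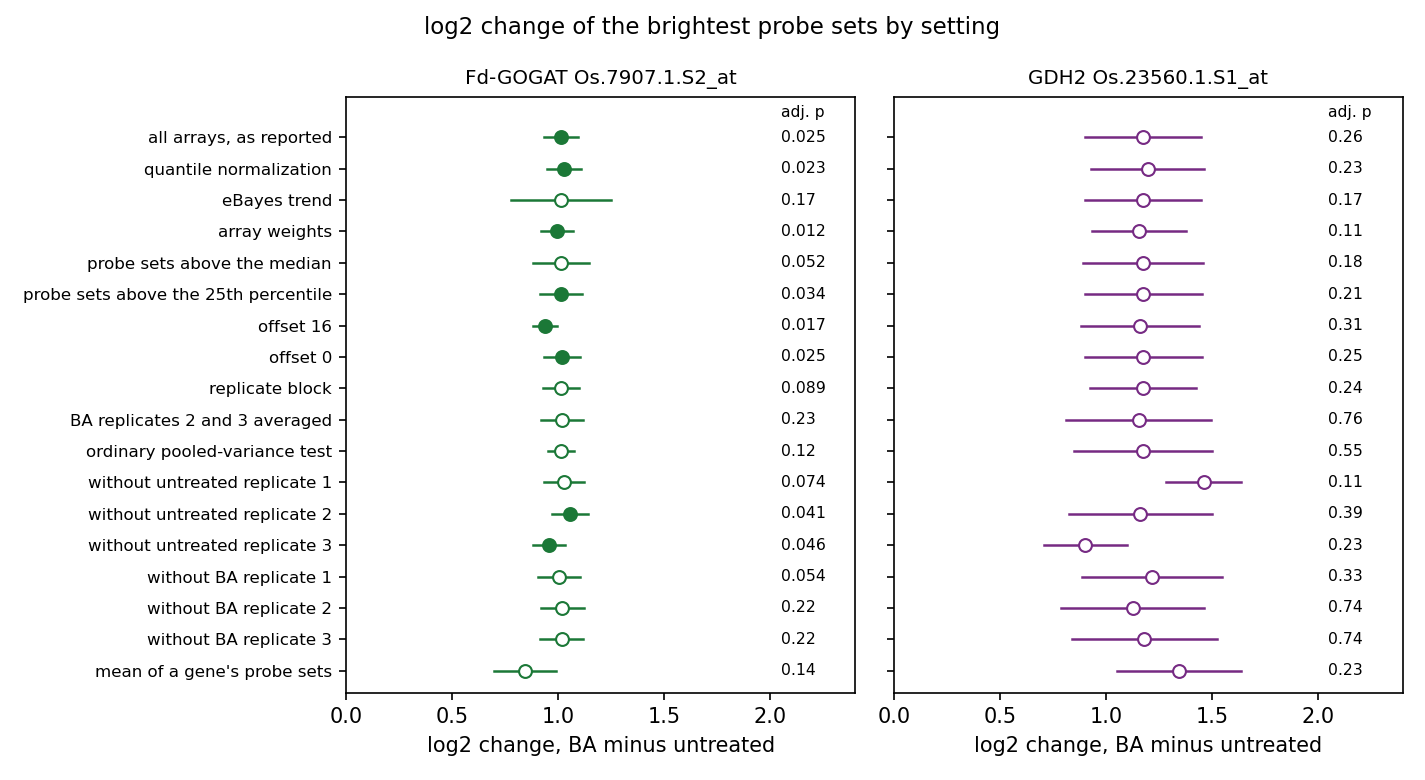
log2 change (BA minus untreated) of the brightest probe sets of Fd-GOGAT and GDH2 under each processing setting, with bars for 1 SE, filled points for an adjusted p under 0.05 and the adjusted p at the right. Every setting places both genes above 0, Fd-GOGAT between 0.84 and 1.06 and GDH2 between 0.90 and 1.46, and no point of GDH2 is filled.

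GDH2 encodes a subunit of glutamate dehydrogenase, and its levels were unequal among the untreated arrays. Its brightest probe set, Os.23560.1.S1_at, had signals of 1326, 877 and 611 in untreated replicates 1, 2 and 3 and 1901, 2158 and 2001 in BA replicates 1, 2 and 3. The untreated arrays spanned 1.12 on the log2 scale and the BA arrays 0.18, and the lowest BA array was 1.43 times the highest untreated one. The change was 1.18 on the log2 scale (SE 0.275, 95% interval 0.501 to 1.85). The limma adjusted p was 0.26 and the exact two-sided permutation p was 0.1, so this difference did not pass the threshold.

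The other GDH2 probe sets share 1 target sequence, and the suffix of Os.52150.1.S1_x_at marks probes that can also bind other transcripts. That probe set had signals of 452, 424 and 275 without BA and 754, 1127 and 1158 with BA, in replicates 1 to 3. The groups were apart, with a log2 change of 1.41 (SE 0.254, 95% interval 0.782 to 2.03, limma adjusted p = 0.15). Os.52150.1.S1_at had signals of 164, 244 and 100.03 without BA and 247, 586 and 576 with BA. There BA replicate 1, at 247, was barely above untreated replicate 2, at 244. Its log2 change was 1.46 (SE 0.457, 95% interval 0.336 to 2.57, limma adjusted p = 0.43).

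Untreated replicate 3 was the lowest array for each GDH2 probe set, and BA replicate 1 was the lowest BA array for each. Without untreated replicate 3 the changes were 0.90, 1.12 and 1.18 for Os.23560.1.S1_at, Os.52150.1.S1_at and Os.52150.1.S1_x_at. Untreated replicate 3 also stood apart in the 28S ribosomal RNA probe set, at a log2 level of 8.44. The remaining untreated arrays had 5.43 and 5.59 there, and BA arrays had 4.88 to 5.18. The part of this difference in the GDH2 result was not tested.

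Other control probes moved with the treatment. Poly-A RNAs, spiked in ahead of labelling, were lower by 0.95 on the log2 scale with BA (27 probe sets), and hybridization controls, added to the labelled sample, were lower by 0.44 (18 probe sets). The 28S probe set was lower by 1.44. Each of these 3 differences had an exact two-sided permutation p of 0.1, the smallest possible, and their part in the higher Fd-GOGAT and GDH2 signals was not tested.

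Markers of green leaf tissue were present, in keeping with the tissue label. Of 5 leaf markers, 4 had changes above 0, with a median of 0.79, and 3 had all BA arrays above all untreated arrays, but none had a limma adjusted p under 0.05 (3 were higher at an unadjusted p under 0.05). The shares of all probe sets were 6.71% with all BA arrays above and 4.24% higher at that unadjusted p. The highest change among them was 1.07 for petC, the Rieske protein of the cytochrome b6-f complex. CAB2R, a light-harvesting protein, was the 1 marker below 0, at −0.20, and at −0.57 on its second probe set. It had the highest signals of the 5 markers, from 582 to 2126, and so weighs most in their sums. Summed signals of the leaf markers ranged from 2141 to 2556 with BA and from 1325 to 2607 without it. Those of 5 endosperm storage protein genes ranged from 159 to 170.4 with BA and from 149 to 161 without it. Those of 4 vascular genes ranged from 97.3 to 103 with BA and from 107 to 131 without it, with all 4 changes below 0. Of these, CESA7 and CESA9 were near the constant of 16, with signals of 22.0 to 25.4 and 16.3 to 32.4. The part of the leaf cell content in the Fd-GOGAT and GDH2 results was not tested.

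The remaining named genes of these enzymes were 7, namely GLT2 (a NADH-dependent glutamate synthase), GDH1 and GDH3, the cytosolic glutamine synthetases GLN1-1, GLN1-2 and GLN1-3, and the plastid glutamine synthetase GLN2. None of the 7 was called at an adjusted p under 0.05 by limma, against 0.0926% of all probe sets called higher and 0.0664% called lower. At an unadjusted p under 0.05, 1 of the 7 was higher and 0 were lower, against 4.24% and 4.25% of all probe sets, a count too small to set apart from the background. Read from their brightest probe sets, 4 had changes above 0 and 3 below, with a median of 0.44, against a median of −0.0035 and 49.0% above 0 for all probe sets. In 6 of the 7 genes the groups overlapped, and in 1 all BA arrays were above. Of all probe sets, 6.71% had all BA arrays above all untreated arrays and 7.3% had them all below. This count is likewise too small to set apart from the background. Further GOGAT and GDH genes that the reference table does not name were not analysed here, so these are not the full families.

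GDH3 was the gene of these 7 whose groups did not overlap. Its signals were 37.1, 27.3 and 25.5 in untreated replicates 1 to 3 and 94.4, 45.6 and 43.4 in BA replicates 1 to 3. BA replicate 1 was far above the other BA arrays, whereas for GDH2 BA replicate 1 was the lowest of them. The log2 change was 0.93 (SE 0.327, 95% interval 0.126 to 1.73, limma adjusted p = 0.51), and 0.57 without BA replicate 1.

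GDH1 had signals of 320, 160 and 257 without BA and 356, 299 and 309 with BA, which overlap. Its log2 change was 0.44 (95% interval −0.19 to 1.07, limma adjusted p = 0.78). All 3 named GDH genes thus had mean levels above those of untreated leaves, and none passed the threshold. The change of GDH2 exceeded that of GDH1 by 0.74 and that of GDH3 by 0.25 on the log2 scale. For both, the per-array differences overlapped between the groups. Exact two-sided permutation p were 0.2 and 0.6 (0.4 and 0.7 after Benjamini-Hochberg adjustment over the 4 pairs of genes compared). The smallest p that 3 against 3 arrays allow is 0.1, so this test could not have called an excess. When each array was left out in turn, the excess over GDH1 ranged from 0.40 (without untreated replicate 3) to 1.00 and that over GDH3 from 0.037 to 0.65.

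Fd-GOGAT and GLT2, the named glutamate synthases, did not follow the same pattern over the arrays. GLT2 had signals of 41.5, 220 and 29.6 in untreated replicates 1, 2 and 3 and 26.2, 46.6 and 45.8 in BA replicates 1, 2 and 3. Untreated replicate 2 lay above all other arrays, where Fd-GOGAT was at its untreated level. The BA arrays of GLT2 lay around its untreated replicates 1 and 3, whereas those of Fd-GOGAT were all above its untreated arrays. The log2 change of GLT2 was −0.75 (SE 0.758, limma adjusted p = 0.89) with all arrays and 0.12 (adjusted p = 0.95) without untreated replicate 2, so no direction can be given. The change of Fd-GOGAT exceeded that of GLT2 by 1.76 on the log2 scale (exact two-sided permutation p = 0.1, the smallest possible, 0.4 after adjustment over the 4 pairs), and by 0.93 without untreated replicate 2. Fd-GOGAT and GDH2 differed in change by −0.16 (Fd-GOGAT minus GDH2, exact two-sided permutation p = 0.7, adjusted 0.7), which became 0.053 without untreated replicate 3.

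**Figure D3:**
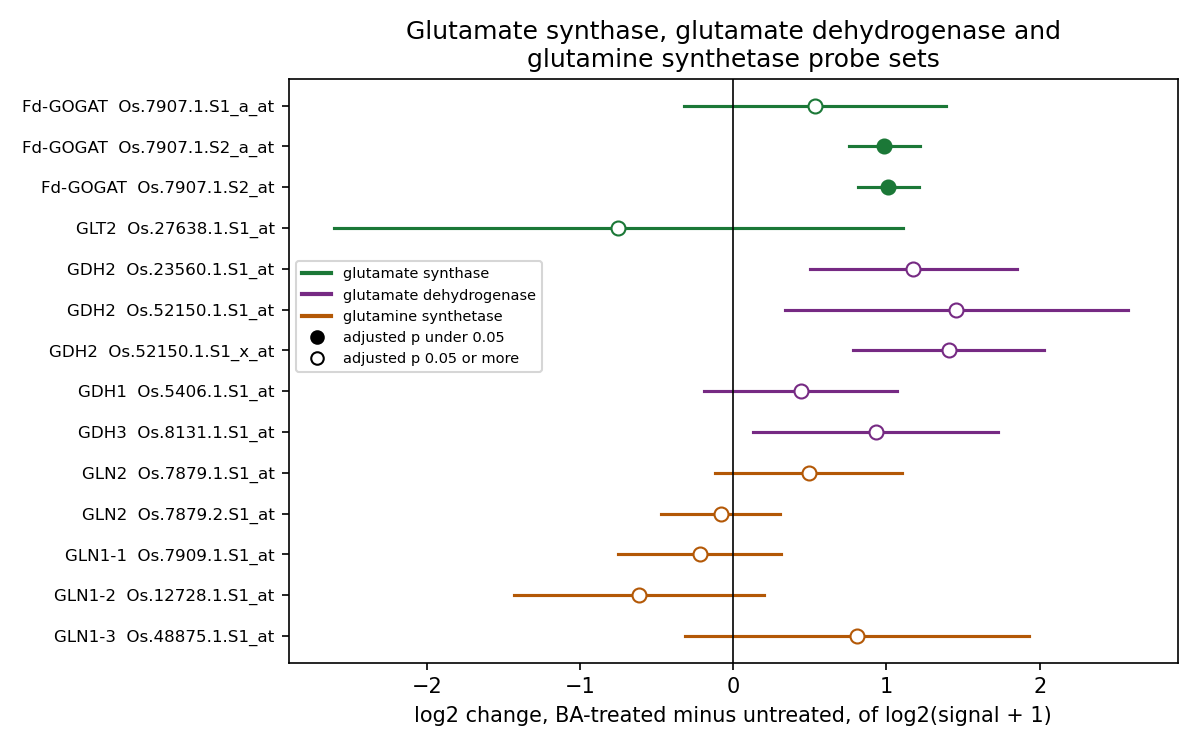
log2 change (BA-treated minus untreated, of log2(signal + 1)) of all probe sets of the glutamate synthase, glutamate dehydrogenase and glutamine synthetase genes, with bars for the 95% interval. Filled points have a limma adjusted p under 0.05, which holds for the Fd-GOGAT probe sets Os.7907.1.S2_at and Os.7907.1.S2_a_at and for no other.

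Glutamine synthetase supplies the glutamine that Fd-GOGAT uses, and none of its genes passed the test. The plastid gene GLN2 had signals of 52.2, 83.5 and 104 without BA and 118, 105 and 103 with BA. Untreated replicate 3 lay within the BA arrays and untreated replicate 1 far below them. Its log2 change was 0.49 (95% interval −0.12 to 1.10, limma adjusted p = 0.72). A second, dim GLN2 probe set lay between 17.2 and 24.5 on all arrays, near the constant, and had a change of −0.08 (adjusted p = 0.95).

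Cytosolic glutamine synthetase is known as a source of the glutamine that leaves export in the phloem, a role not examined here for the single genes. GLN1-1 had signals of 766, 440 and 476 without BA and 490.0, 468 and 444 with BA. It stood out on untreated replicate 1 only, and its change of −0.22 (limma adjusted p = 0.89) was 0.029 without that array. GLN1-2 had signals of 244, 178 and 123 without BA and 77.4, 149 and 127 with BA, overlapping, with a log2 change of −0.62 (95% interval −1.43 to 0.202, adjusted p = 0.75). GLN1-3 had signals of 138, 55.9 and 41.0 without BA and 157, 105 and 105 with BA, overlapping through untreated replicate 1, with a log2 change of 0.81 (95% interval −0.32 to 1.93, adjusted p = 0.77).

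Genes that feed or drain this cycle were counted as a wider list of nitrate and ammonium transporters, nitrate reductase and enzymes that use glutamate, arginine or urea. Of 25 named genes, 21 were measured, and AMT1-3, NRT2.1, NAR2.1 and GABA-T had no probe set of their own. None of the 21 was called by limma, against 0.0926% of all probe sets called higher and 0.0664% called lower. Of the 21, 9 had changes above 0 and 12 below, with a median of −0.05. For all probe sets, 49.0% were above 0 and the median was −0.0035. The changes ranged from −0.85 to 0.65, and both Fd-GOGAT and GDH2 lay above every gene of the list in their brightest probe sets. The study had listed a glutamate synthase and a glutamate dehydrogenase as higher on these arrays, so this contrast follows in part from the choice of genes. At an unadjusted p under 0.05, 1 of the 21 was higher and 2 were lower, few enough to be near the 4.24% and 4.25% of all probe sets.

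Genes below 0 with no overlap between the groups were 3 of the 21, and 7.3% of all probe sets had all BA arrays below all untreated arrays. AMT3-2, an ammonium transporter, had signals of 250, 130 and 158 without BA and 81.2, 111 and 96.7 with BA, a log2 change of −0.85 (limma adjusted p = 0.41). P5CS1, which starts the synthesis of proline from glutamate, had signals of 225, 399 and 418 without BA and 162, 212 and 216 with BA, a change of −0.78 (adjusted p = 0.49). SSADH1 encodes the succinic semialdehyde dehydrogenase that ends the GABA shunt, a route that starts from glutamate, and its change was −0.38 (adjusted p = 0.62). UREF, a urease accessory protein, was the 1 gene of the 21 with BA arrays all above untreated ones, against 6.71% of all probe sets, at 0.33 (adjusted p = 0.44).

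**Figure D4:**
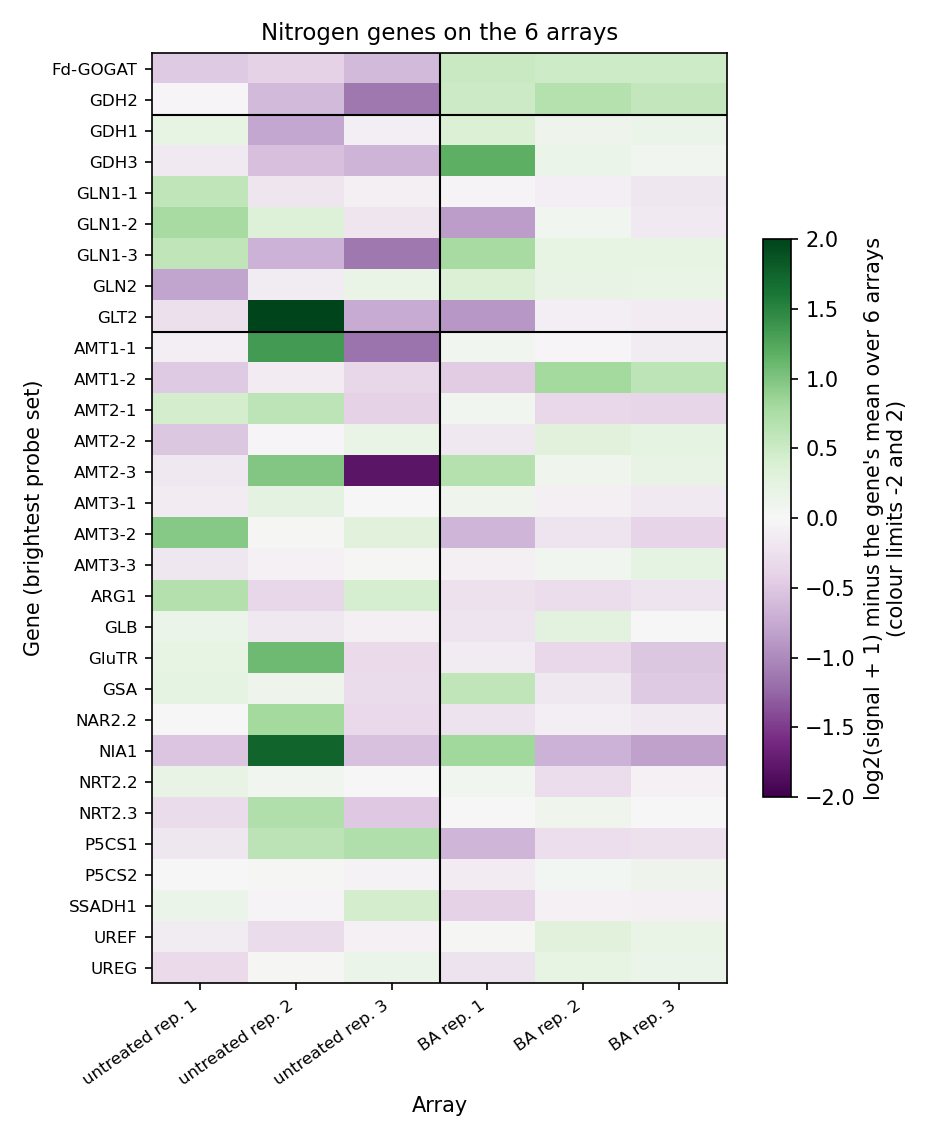
log2(signal + 1) minus the gene's own mean over the 6 arrays, for Fd-GOGAT and GDH2 (top block), the 7 other genes of these enzymes (middle block) and the 21 measured genes of the wider nitrogen list (bottom block). Columns are arrays, with untreated at the left, and colours are limited to between −2 and 2. Fd-GOGAT and GDH2 are below their mean on every untreated array and above it on every BA array, while GLT2, NIA1, AMT1-1 and AMT2-3 are highest on untreated replicate 2.

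The named genes whose levels followed those of Fd-GOGAT and GDH2 most closely over the 6 arrays were sought among 2037 genes above the median level by Pearson's r of log2 values. For Fd-GOGAT they were LOX1.1, a lipoxygenase (r = 0.998), CDPMEK, a kinase of the plastid isoprenoid pathway (0.996), OsNrx1-2, a nucleoredoxin (0.994), CAD6, a cinnamyl alcohol dehydrogenase (0.993), and OSK3, a SNF1-related protein kinase (0.986). Their own log2 changes ran from 0.67 for OSK3 to 2.03 for LOX1.1. For GDH2 they were ADF-10, an actin depolymerizing factor (r = 0.992), NRAMP6, a metal transporter (0.983), GER6, a germin-like protein (0.976), CIPK21, a protein kinase that calcium sensors regulate (0.968), and mads47, a MADS-box factor (0.964). Their own log2 changes were 0.33, 0.97, 2.55, 0.66 and 0.47. These correlations are descriptions over 6 arrays in 2 groups, and any gene whose groups lie far apart correlates with any other such gene. No gene of the nitrogen lists was among them.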

How the data were processed

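RNA taken after 72 h in darkness was hybridised to Affymetrix arrays for rice, 3 with BA and 3 without. The authors deposited 1 linear intensity per probe set and array, summarised with PLIER and variance-stabilized with a constant. The submitters' processing notes also name RMA. Not given in the sources used here are the versions, what RMA was used for, and how arrays were scaled to each other. Control probe sets (123) were left out, and the other intensities were used without further normalization as log2(signal + 1). Fold changes on this scale understate those of dim probe sets. Groups were compared in R 4.3.3 by the two-sided moderated test of limma 3.58.1 (lmFit, then eBayes). Benjamini-Hochberg adjustment covered all 57258 probe sets and the threshold was 0.05. Every adjusted p of a single gene is from that fit unless another setting or a left-out array is named. For those, the fit and the adjustment were made anew. Differences in change between genes were tested by exact permutation of the arrays.

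Names came from the platform annotation, matched on gene identifiers to assembly ASM3414082v1. Genes with several probe sets were read from the brightest. All probe sets of the named GOGAT, GDH and glutamine synthetase genes are reported, and of the wider list up to 4 genes per direction with the smallest p. SSADH1 and UREF are named because the groups do not overlap. The genes and lists were chosen with earlier results of these data known. The fit was tested on simulated data. Alternatives covered normalization, spread estimate, array weights, dim probe sets, the log offset, probe sets averaged per gene, the replicate number as a block, averaged BA replicates 2 and 3, and each array left out. Precision is limited by the number of arrays.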

Additional observations from a re-analysis of the deposited data

How the results depend on the processing

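No setting turned the direction of an Fd-GOGAT or GDH2 probe set, and no setting called GDH2, whose adjusted p ranged from 0.11 to 0.76, 0.16 to 0.97 and 0.053 to 0.59 for Os.23560.1.S1_at, Os.52150.1.S1_at and Os.52150.1.S1_x_at. The call on Fd-GOGAT was lost in 10 of 17 settings for Os.7907.1.S2_at and in 11 of 16 for Os.7907.1.S2_a_at, and the cause was not tested. For these 2 probe sets the changes and adjusted p were 1.01 (0.17) and 0.98 (0.14) with a mean-variance trend, 1.01 (0.052) and 0.98 (0.062) with only probe sets above the median, and 1.01 (0.12) and 0.98 (0.19) with the ordinary test without moderation. They were 1.02 (0.23) and 0.96 (0.30) with BA replicates 2 and 3 averaged, which leaves fewer samples, and 0.84 (0.14) for the mean of the Fd-GOGAT probe sets. Leaving out each array in turn gave 0.96 to 1.06 and 0.93 to 1.05. The 2 calls among the 6 probe sets became 0 under the trend, the median filter, the block, the averaging and the ordinary test, and 0 to 1 with an array left out. Over all probe sets, 53 were called higher in the main fit, 73 with the trend and 39 with the median filter. With the block, the averaging and the ordinary test, 0, 0 and 1 were called higher.

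Arrays with the same replicate number correlated in their deviations at 0.42, −0.013 and 0.42, and arrays with different numbers at −0.40 to 0.27. Whether the numbers pair the samples cannot be told from these values, and the main fit did not pair them. With the replicate number as a block the changes were 1.01 (adjusted p = 0.089) and 0.98 (0.093), and 0 probe sets were called higher and 0 lower. Over all probe sets the 53 called higher became 150 with array weights, 0 with the averaging, 1 with the ordinary test and 0 to 98 with an array left out. The 38 called lower became 63 with the trend, 130 with array weights, 0 with the averaging, 0 with the ordinary test and 0 to 82 with an array left out. At the study's thresholds the 1236 lower became 802 with the ordinary test. Directions turned for GLT2 (0.12 without untreated replicate 2, range −1.31 to 0.12 with an array left out), GLN1-1 (0.029 without untreated replicate 1, range −0.37 to 0.029), the dim GLN2 probe set (0.0085 with array weights, 0.030 without untreated replicate 3, 0.026 without BA replicate 1, range −0.21 to 0.030) and Fd-GOGAT minus GDH2 (0.053 without untreated replicate 3, range −0.43 to 0.053). The other GOGAT, GDH and glutamine synthetase genes and the genes of the wider nitrogen list, read from their brightest probe sets, were called in no setting.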

Other observations

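Untreated replicate 2 carried high levels of several nitrogen genes that Fd-GOGAT and GDH2 did not share. It was the highest of the 6 arrays for 9 of 28 genes of the nitrogen lists (32.1%), against 18.1% of all 17905 genes. Relative to the other untreated arrays, GLT2 was 6.14-fold higher there, NIA1 (nitrate reductase) 4.86-fold, the ammonium transporters AMT1-1 and AMT2-3 3.89-fold and 3.86-fold, the nitrate transporter NRT2.3 2.16-fold, and NAR2.2, a partner protein of nitrate transporters, 1.95-fold. GluTR, the glutamyl-tRNA reductase of chlorophyll synthesis, was also over 2-fold higher. These values are from the brightest probe sets. On the second, dim probe sets of NIA1 and AMT1-1, untreated replicate 2 was the lowest of the 6 arrays, at 22.6 and 17.9. Other genes of the lists were lower on that array, at 0.527 times the other untreated arrays for ARG1 (arginase), 0.559 for GDH1 and 0.657 for AMT3-2. Of all probe sets, 0.224% had a larger excess on that array than GLT2 and 0.386% a larger one than NIA1. Fd-GOGAT and GDH2 were at 1.09 and 0.974 times the other untreated arrays. The pattern was noticed after the values were seen, rests on 1 array, and was not tested.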
